A study of Homo sapiens with 6 samples.

Results

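The Yippee-like family comprises 5 genes, Ypel1 to Ypel5, which were found by their symbols among the 22989 genes of the count table. All 5 were among the 13497 genes with enough counts to be tested. By the labels and the study, RNA came from paclitaxel (PTX)-resistant breast cancer stem cells (BCSC) of MDA-MB-231, a human triple-negative breast cancer line. These cells were sorted in the study for high aldehyde dehydrogenase activity. Of the 6 libraries, 3 are labelled LINC00115 KD (genotype LINC00115 knockdown, by a short hairpin RNA against this long noncoding RNA) and 3 are labelled WT, and both groups share the PTX-resistant background. The study's other knockdown experiments used a control hairpin (shC), and the labels do not say whether the WT libraries carry one, so effects of vector and hairpin cannot be told apart from those of the knockdown. The labels do not say whether the libraries of a group came from separate cultures, so their spread may be technical. The study performed this comparison to learn how LINC00115 acts on BCSC properties. The family was chosen because its members were lower in the KD libraries, so the values of this contrast are given here as a description, with no p-value for the members, and their place beside the study's thresholds is part of that description and supports nothing.

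Yippee-like proteins are small zinc-binding proteins, named after the fly protein Yippee and conserved across animals. YPEL1 to YPEL4 resemble each other closely, while YPEL5 is the divergent member. YPEL proteins have been located at the centrosome, the mitotic spindle and the nucleolus, YPEL3 is known as a p53-induced gene linked to growth arrest and senescence, and YPEL5 binds RANBP9 of the CTLH ubiquitin ligase.

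Totals of the 6 libraries lay between 36979221 and 38799331 counts. The table holds 0 rows named LINC00115, so the knockdown could not be checked and every direction rests on the labels. Its symbols are in mouse style, with 4648 of the 22989 rows named Gm and a number, although the labels give a human line. The strand setting is not given in the sources used here. The human sequences below are therefore those of the genes with the same symbol, and may not be those of the counted genes. The source species of the counted reads was not tested. Among markers of the labelled cells, Vim (3418 ± 49.8 normalized CPM in WT, SD, n = 3) and Cd44 (911 ± 45.8) were abundant, whereas Aldh1a1 was at 0.327 ± 0.119 and Aldh1a3 at 0.00885 ± 0.0153. Of the 12 listed breast cancer cell markers, 7 were higher and 0 lower in KD without overlap. Their summed level was 4929 to 4989 in WT and 5556 to 5695 in KD. Aldh1a1 (1.16 ± 0.158 in KD) and Esr1 were called higher, and Krt8, Krt18 and Erbb2 were higher by less than a fold change of 2. The list holds the receptor genes Esr1, Pgr and Erbb2, which are not markers of a triple-negative line. Its counts and sum therefore do not measure the labelled cell type. Krt14 was called lower with overlap (log2 ratio −1.55, edgeR adjusted p = 0.0159), on uneven WT counts of 7, 30 and 192. Krt5 had 92 counts in WT replicate 3 and 0 in every other library. Normalized CPM are counts scaled to a common library size by the TMM method. Of all genes tested, 37.8% were lower in KD without overlap, and the share higher without overlap is not given. The counts of markers higher without overlap therefore stand here without a background. All 12 of 12 listed lung markers were higher in KD with no overlap between the groups, with a summed level of 1.65 to 1.96 normalized CPM in WT and 73.8 to 84.4 in KD, and 8 of them, among them Scgb1a1 and Sftpc, were at 0 in WT. For kidney markers, 8 of 12 were higher and 1, Cubn, lower without overlap (16.9 to 19.9 in WT and 42.4 to 46.5 in KD). Umod and Kap were among those at 0 in WT, as were Aqp2 and Nphs1, which had only 1, 0 and 4 and 0, 1 and 1 counts in KD. Of the 11 leukocyte markers in the table, 4 were higher and 1 lower without overlap (71.9 to 86.0 and 144 to 160, with Cd3e at 0 in all libraries). Of 12 stroma and endothelium markers, 3 were higher and 3 lower without overlap (175 to 194 in WT and 135 to 138 in KD). The sum was mostly Pdgfra (178 ± 9.92 in WT and 74.5 ± 1.39 in KD). Cdh5, the endothelial cadherin, rose from 0.221 ± 0.131 to 57.8 ± 1.45 (SD, n = 3, log2 ratio 8.01, edgeR adjusted p = 4.86e-32). The other endothelial genes listed did not follow it. Pecam1 (0.230 in WT and 0.324 in KD) and Vwf (0.406 and 0.397) did not pass the test, and Kdr and Tek had too few counts to be tested. The part of RNA from such marker genes in the results below was not tested, and in bulk RNA fewer cells of a type and less RNA per cell cannot be told apart.

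To show how alike the members are, and hence whether reads of one could be counted on another, the coding sequences of the canonical human transcripts (GENCODE, GRCh37) were compared. Shares are of all alignment positions, with gaps counted as differences. YPEL1 and YPEL2, both of 119 residues, shared 80.6%, and YPEL4 (127 residues) shared 72.7% with YPEL1 and 73.7% with YPEL2. YPEL3 (157 residues) shared 59.1% to 64.1% with YPEL1, YPEL2 and YPEL4. Its coding sequence is longer (474 bases against 360, 360 and 384), so its unpaired bases lower these values. They therefore do not rank YPEL3 by likeness. YPEL5 (121 residues) lay furthest from the others, at 43.7% to 54.0%. The longest run of identical bases in any pair, 22 bases between YPEL1 and YPEL3, lies in a stretch that codes for a Cys-X-X-Cys pair of the zinc-binding fold. These 48 bases of each gene are shown because they hold this run. Capitals mark bases that differ from YPEL1.
YPEL1: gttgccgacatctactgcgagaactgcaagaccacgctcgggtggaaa
YPEL2: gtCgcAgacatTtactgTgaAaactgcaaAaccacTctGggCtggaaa
YPEL3: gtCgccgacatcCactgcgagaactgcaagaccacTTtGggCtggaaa
YPEL4: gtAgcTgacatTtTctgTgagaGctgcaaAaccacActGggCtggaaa
YPEL5: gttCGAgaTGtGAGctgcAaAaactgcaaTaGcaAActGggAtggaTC
In this window YPEL3 differed from YPEL1 at 6 bases, YPEL2 at 9, YPEL4 at 10 and YPEL5 at 18. Untranslated parts were not compared.

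All 5 members were lower in every KD library than in every WT library, as were 37.8% of all genes tested. The study called genes at a fold change above 2 with an adjusted p below 0.05. By this rule 4 of the 5 members were called, Ypel3 being the exception, where 20.2% of all genes tested were called, 9.98% lower and 10.2% higher. Since the family was chosen on this contrast, nothing is read from these counts. The members were ordered by the size of the difference as Ypel4, Ypel2, Ypel1, Ypel5 and Ypel3, and Ypel5 and Ypel3 differed from each other by less than their standard errors.

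**Figure D1:**
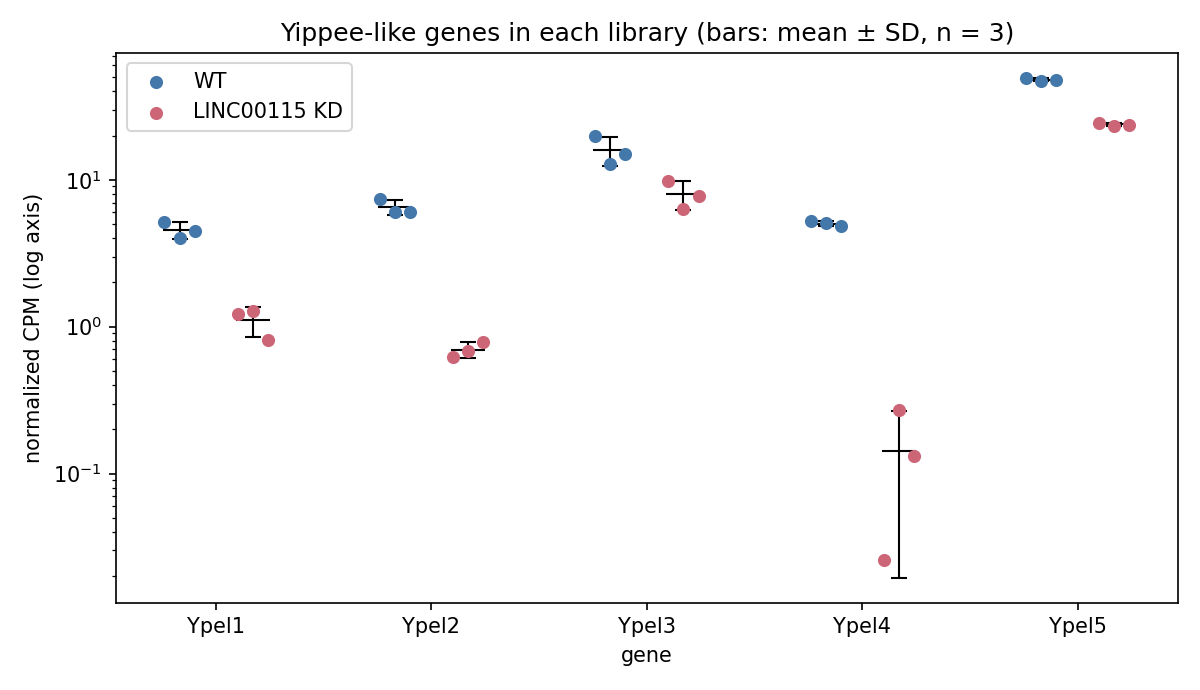
Normalized CPM (log axis) of each Yippee-like gene in the 3 WT and the 3 LINC00115 KD libraries, with points for libraries and bars for the mean ± SD. Within each gene the KD points lie below the WT points, and the gap is widest for Ypel4, whose highest KD library was 17.7-fold below its lowest WT library.

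Ypel4 was nearly lost from the KD libraries. Its counts were 197, 191 and 182 in WT and 1, 10 and 5 in KD. The WT libraries were alike and the KD libraries were all near the limit of detection, with no overlap. The mean was 5.03 ± 0.207 normalized CPM in WT and 0.143 ± 0.124 in KD (SD, n = 3), with a log2 fold change of KD over WT (log2 ratio below) of −5.12 (standard error, SE, 0.37). From the summed counts, 16 against 570, 2.80% of the WT level was left, with an exact 95% interval of 1.59% to 4.59% that covers counting error only. Ranked from the most negative log2 fold change, Ypel4 was number 19 of the 13497 genes tested. The size of the difference rested on a few reads, and without KD replicate 2, the library with 10 counts, it was −5.94.

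Ypel2 showed the next largest difference. Its counts were 277, 228 and 228 in WT and 24, 25 and 30 in KD. The KD libraries lay close together, and the highest of them was 7.64-fold below the lowest WT library. The means were 6.48 ± 0.760 and 0.697 ± 0.0858 normalized CPM (SD, n = 3), which gave a log2 fold change of −3.21 (SE 0.23). Its rank from the lowest was 94.

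Ypel1, which shared the largest part of its coding alignment with Ypel2, had counts of 195, 151 and 169 in WT and 47, 47 and 31 in KD. KD replicate 3 was the lowest library, and the groups did not overlap. The mean decreased from 4.55 ± 0.592 to 1.10 ± 0.251 normalized CPM (SD, n = 3), with a log2 fold change of −2.04 (SE 0.25) and rank 369. Of the WT mean, 24.3% was left for Ypel1, against 10.8% for Ypel2 and 2.85% for Ypel4. Levels of different genes were not compared further, since the lengths of the gene models used for counting are not given in the sources used here.

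Ypel5, the divergent member, held the most reads and varied least. Its counts were 1857, 1782 and 1802 in WT and 947, 853 and 903 in KD. The coefficient of variation (CV) was 2.27% in WT and 2.63% in KD, close to the 2.35% and 3.33% that counting alone gives. The mean was 48.1 ± 1.09 in WT and 23.8 ± 0.626 normalized CPM in KD (SD, n = 3), with a log2 ratio of −1.01 (SE 0.06). The difference was many times the spread, but it lay next to the fold-change threshold, and without WT replicate 1 (−0.99) or KD replicate 2 (−0.98) Ypel5 was under a fold change of 2.

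Ypel3 had a difference of the same size with a much wider spread. Its counts were 750, 487 and 568 in WT and 382, 233 and 294 in KD. The highest WT library was 1.54-fold above the lowest, and the highest KD library 1.56-fold above the lowest, although the groups still did not overlap. The CV was 22.5% in WT and 22.3% in KD, where counting alone gives 4.08% and 5.74%. The spread of Ypel3 between replicates in edgeR's fit, the biological CV, was 10.7% against 8.05% for genes of its level, whereas that of Ypel5 was 4.69% against 5.04%. The means were 15.9 ± 3.59 and 7.99 ± 1.78 normalized CPM (SD, n = 3), with a log2 ratio of −0.995 (SE 0.14), just under a fold change of 2. It ranged from −1.17 without KD replicate 1 to −0.80 without WT replicate 1.

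**Figure D2:**
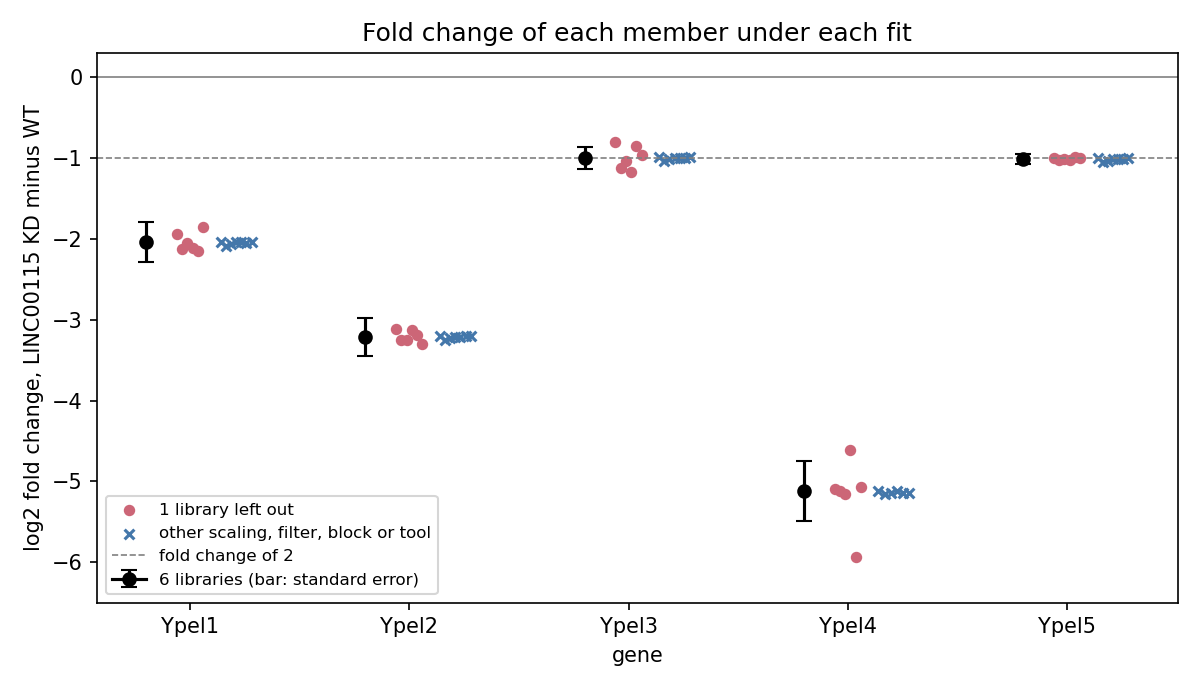
Log2 fold change (KD minus WT) of each member in the fit of all 6 libraries (black, bar for the standard error), with 1 library left out (red) and with another scaling, filter, replicate block or tool (blue crosses). Ypel3 and Ypel5 straddle the line of a fold change of 2, and the red points of Ypel4 spread from −5.94 to −4.62.

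The summed counts of the family were 3276, 2839 and 2949 in WT and 1401, 1168 and 1263 in KD. As normalized CPM, the sum was 80.1 ± 6.13 in WT and 33.8 ± 2.25 in KD (SD, n = 3), so that 42.2% was left. Ypel5 carried 52.3% of this difference, Ypel3 17.2%, Ypel2 12.5%, Ypel4 10.6% and Ypel1 7.44%. The makeup of the family reads therefore differed as well. Ypel5 took 60.2% ± 3.14 of the family counts in WT and 70.7% ± 2.80 in KD, and Ypel3 19.8% ± 2.90 and 23.5% ± 3.66 (SD, n = 3), the latter with overlap between the groups. Ypel2 decreased from 8.07% ± 0.364 to 2.08% ± 0.336 and Ypel1 from 5.67% ± 0.322 to 3.28% ± 0.788. Ypel4 took 6.30% ± 0.375 of the family counts in WT and 0.441% ± 0.394 in KD, where the share was 0.0714% in KD replicate 1 (95% Wilson interval 0.0126% to 0.403%) and 0.856% in KD replicate 2 (0.466% to 1.57%). These are shares of reads, which also depend on transcript length.

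**Figure D3:**
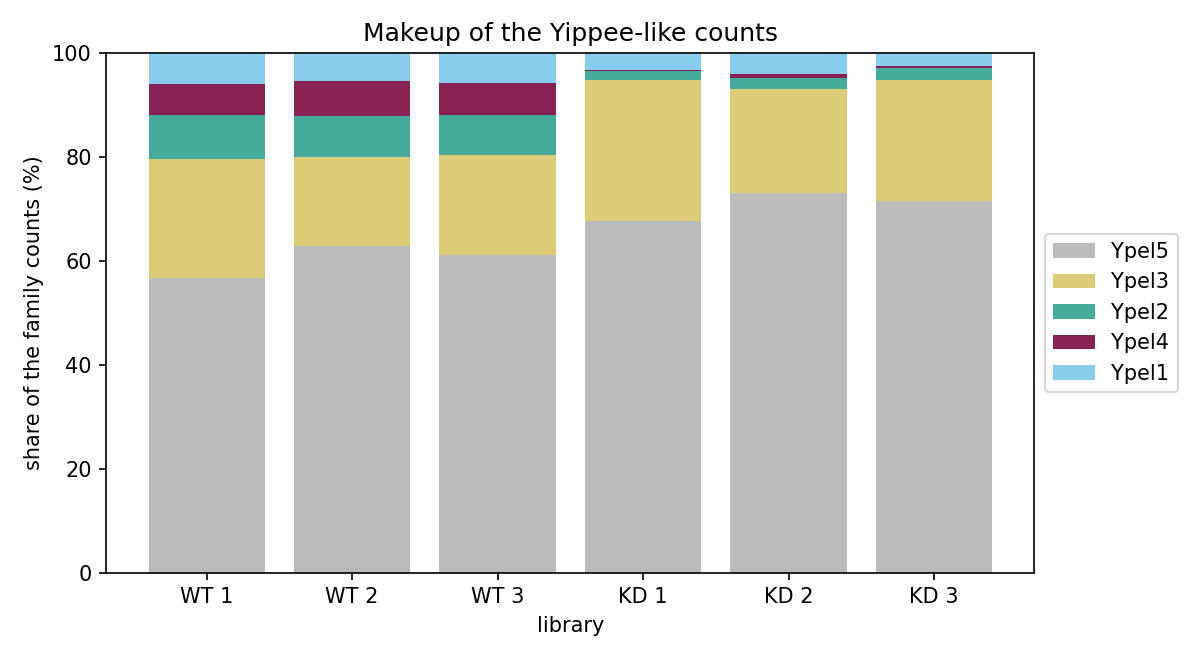
Share (%) of the family counts taken by each Yippee-like gene in each library, stacked to 100%. Ypel5 and Ypel3 together took 80.0% ± 0.395 in WT and 94.2% ± 1.06 in KD (SD, n = 3), and the bands of Ypel2, Ypel4 and Ypel1 are narrower in KD.

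**Figure D4:**
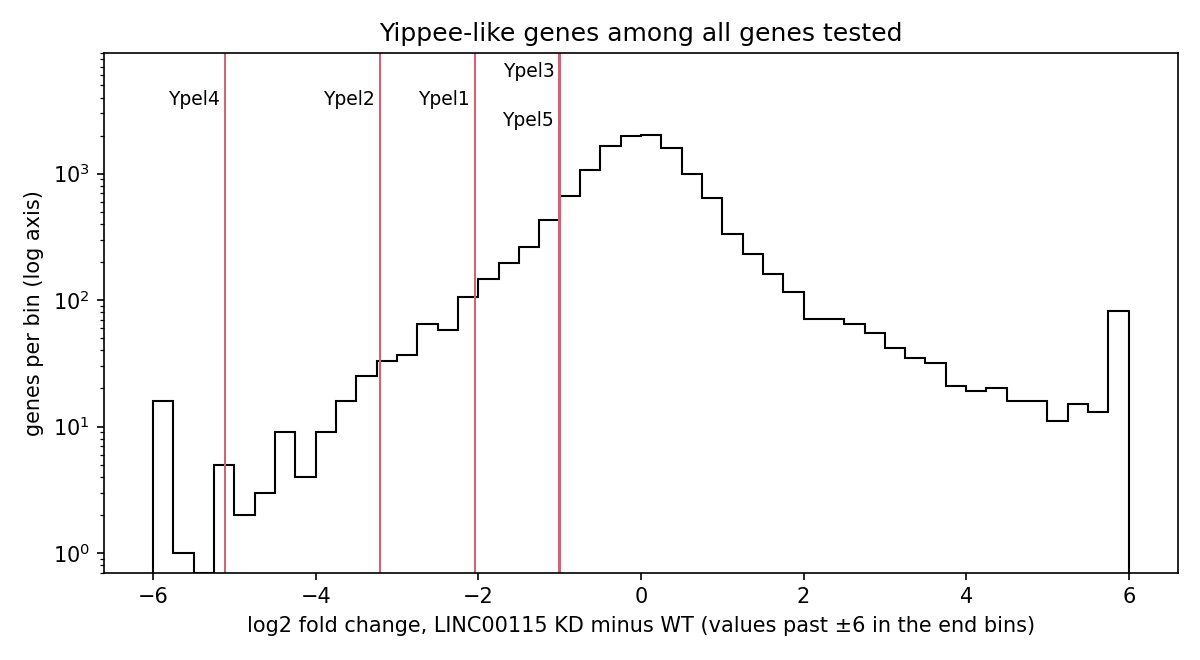
Number of genes tested (log axis) per bin of log2 fold change (KD minus WT), with red lines at the Yippee-like genes and values past the axis held in its end bins. Ypel4 and Ypel2 lie in the sparse left tail, at −5.12 and −3.21, and Ypel3 and Ypel5 lie near −1 on the left flank.

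The genes whose values ran most like a member over the 6 libraries were found by the root-mean-square difference of log2 normalized CPM, each gene centred on its WT mean. For Ypel4 no gene came within 0.25 log2 units, and the nearest were Dlx3 (0.452), Gm34375 (0.516) and Cyp11a1 (0.517). For Ypel2 the nearest were Sema6c (0.161), LOC115486327 (0.168), which had no KD counts, and Mpp2 (0.184). The prior count of 2 in these log2 values draws genes near 0 counts together. The fitted log2 fold change was −7.04 for LOC115486327 against −3.21 for Ypel2. Against −5.12 for Ypel4, it was −6.21 for Dlx3, −4.36 for Gm34375 and −7.13 for Cyp11a1. Ypel1 was followed most closely by Sv2a (0.0912), Sema4g (0.0955) and Map3k13 (0.134), and Ypel5 by Ing1 (0.0227), Ldb1 (0.0237) and Pask (0.0276). Within 0.25 log2 units there were 15 genes for Ypel2, 78 for Ypel1 and 1016 for Ypel5.

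Since the members were lower together, their human promoters are shown, read from RefSeq (GRCh38.p14, 250 bases before to 50 bases after the start of each gene). Of the 5 members 4 had an entry, and YPEL1, on chromosome 22, had none. Each is printed on its own strand, with capitals at matches to ACGTG or GCGTG on either strand, the core letters bound by hypoxia-inducible factors, which the study also examined.
YPEL2 (chr17:59331405-59331704, plus strand): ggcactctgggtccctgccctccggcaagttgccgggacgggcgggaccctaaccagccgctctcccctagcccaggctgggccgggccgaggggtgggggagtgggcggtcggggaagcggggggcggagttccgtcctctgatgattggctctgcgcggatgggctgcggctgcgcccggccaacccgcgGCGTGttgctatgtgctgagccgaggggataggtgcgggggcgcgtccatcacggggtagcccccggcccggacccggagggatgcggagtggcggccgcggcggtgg
YPEL3 (chr16:30096164-30096463, minus strand): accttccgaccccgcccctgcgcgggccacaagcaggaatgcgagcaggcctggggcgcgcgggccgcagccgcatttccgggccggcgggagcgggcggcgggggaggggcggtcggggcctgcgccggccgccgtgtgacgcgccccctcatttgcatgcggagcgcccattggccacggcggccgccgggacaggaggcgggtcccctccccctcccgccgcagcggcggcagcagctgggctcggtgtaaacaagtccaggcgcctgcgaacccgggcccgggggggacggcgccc
YPEL4 (chr11:57649863-57650162, minus strand): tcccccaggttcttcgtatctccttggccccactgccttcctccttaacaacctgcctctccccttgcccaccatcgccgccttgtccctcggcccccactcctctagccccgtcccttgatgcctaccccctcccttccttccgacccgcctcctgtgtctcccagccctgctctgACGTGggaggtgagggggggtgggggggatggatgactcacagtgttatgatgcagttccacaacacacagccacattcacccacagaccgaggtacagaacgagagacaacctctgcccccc
YPEL5 (chr2:30146757-30147056, plus strand): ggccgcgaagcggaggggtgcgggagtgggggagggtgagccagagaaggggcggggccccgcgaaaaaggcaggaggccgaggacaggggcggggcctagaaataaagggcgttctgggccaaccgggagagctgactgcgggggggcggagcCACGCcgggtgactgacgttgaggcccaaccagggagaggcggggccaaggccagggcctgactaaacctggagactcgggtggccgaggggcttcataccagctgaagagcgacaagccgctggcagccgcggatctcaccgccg
YPEL4 held 1 match to ACGTG, YPEL2 and YPEL5 held 1 match each to GCGTG and YPEL3 held none, where 21.6% of the 27305 promoters of this length hold ACGTG, 36.3% GCGTG and 48.4% either. The YPEL4 promoter stood apart in base composition, with 62.3% G and C and 10 CG dinucleotides, against 70.0% to 79.0% and 25 to 42 in the other 3. GGGCGG, the GC box, matched 3 times in each of YPEL2, YPEL3 and YPEL5 and not in YPEL4 (44.6% of all promoters hold it). CCAAT, searched on both strands like the others, matched once each in YPEL2 and YPEL3 (35.7%). A match describes the letters only.

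The genes next to each member in the human gene order (the nearest 2 protein-coding genes on each side, 20 in all, 20 tested) did not all share the direction. Of them 4 of 20 were called lower and 1 of 20 higher, where 9.98% of all genes tested were called lower and 10.2% higher. Beside Ypel4, Ube2l6, the ISG15-conjugating enzyme, rose from 53.6 ± 3.10 to 183 ± 6.88 normalized CPM (SD, n = 3), with a log2 ratio of 1.77 (SE 0.05, edgeR adjusted p = 3.35e-27). Serping1, the C1 inhibitor on the same side, fell by 1.10 on the log2 scale (edgeR adjusted p = 7.68e-06). On the other side, Clp1 (−0.016, edgeR adjusted p = 0.88) and Zdhhc5 (−0.070, edgeR adjusted p = 0.0651) did not pass the test. Next to Ypel5, Lbh, a transcriptional cofactor, fell from 39.1 ± 1.94 to 11.8 ± 0.525 normalized CPM (SD, n = 3, log2 fold change −1.73, edgeR adjusted p = 2.81e-20), while Lclat1 was at 0.26 and Clip4 and Alk did not pass. Next to Ypel3, Tbx6 (0.609 ± 0.185 in WT and 0.0268 ± 0.0273 in KD) and Gdpd3 (0.689 ± 0.0785 and 0.238 ± 0.0941 normalized CPM, SD, n = 3) were called lower on few counts, and the kinase gene Mapk3 fell by 0.74 on the log2 scale without passing the fold-change threshold, as did Ppp4c by 0.28. If strand was not used in the counting, reads of overlapping neighbours cannot be told apart. Near Ypel1, Sdf2l1, Ppil2 and Ppm1f (log2 fold changes −0.54 to 0.69) did not pass both thresholds, nor did Smg8, Gdpd1, Dhx40 and Cltc near Ypel2 (−0.61 to 0.37).

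To place the family beside genes of related themes, 7 lists were counted in the same fit. In the CTLH ubiquitin ligase list, which holds the partners of YPEL5, 0 of 12 genes were called in either direction, beside 20.2% of all genes tested. Without the fold threshold, 5 were lower and 4 higher (36.7% of all genes tested were lower and 36.7% higher by that rule), with a median log2 fold change of −0.15, where the median of all genes tested was −0.0061. Ranbp9 and Ranbp10, the binding partners of YPEL5, moved in opposite directions, Ranbp9 from 87.9 ± 3.37 to 105 ± 6.14 (log2 fold change 0.26, edgeR adjusted p = 8.98e-06) and Ranbp10 from 69.6 ± 4.96 to 55.7 ± 1.06 normalized CPM (SD, n = 3, −0.32, edgeR adjusted p = 2.38e-06). Armc8 (0.60), Gid8 (0.27) and Rmnd5b (0.32) were also higher, and the E2 enzyme Ube2h (−0.54), Rmnd5a (−0.48), Gid4 (−0.31) and Wdr26 (−0.19) lower. Maea (0.017), Mkln1 (−0.11) and Nmnat1 (−0.21) did not pass.

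Among 10 other proteins built on a Yippee-like fold, 3 were called lower and 2 higher (median −0.050). Of all genes tested, 9.98% were called lower and 10.2% higher. With 1 library left out, 2 were called lower without WT replicate 1, WT replicate 3 or KD replicate 2, and 3 higher without WT replicate 3. Msrb1, a methionine sulfoxide reductase, fell from 37.6 ± 2.45 to 14.7 ± 0.989 normalized CPM (SD, n = 3), with a log2 ratio of −1.36 (SE 0.08, edgeR adjusted p = 2.83e-17). Oip5, which acts with Mis18a at centromeres, fell by 1.03, and Msrb2 by 1.60 on the log2 scale on few counts. The RNA sensors rose, Dhx58 from 21.6 ± 0.741 to 104 ± 0.525 (log2 fold change 2.27, edgeR adjusted p = 2.17e-28) and Ifih1 from 34.3 ± 2.99 to 162 ± 8.32 normalized CPM (SD, n = 3, 2.23, edgeR adjusted p = 3.20e-28), and Ddx58 was 0.98 higher, just under the fold threshold. Crbn, the cereblon gene (−0.38), Mis18a (−0.28) and Rabif (0.21) differed by less than a fold change of 2, and Msrb3 (0.18) did not pass.

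**Figure D5:**
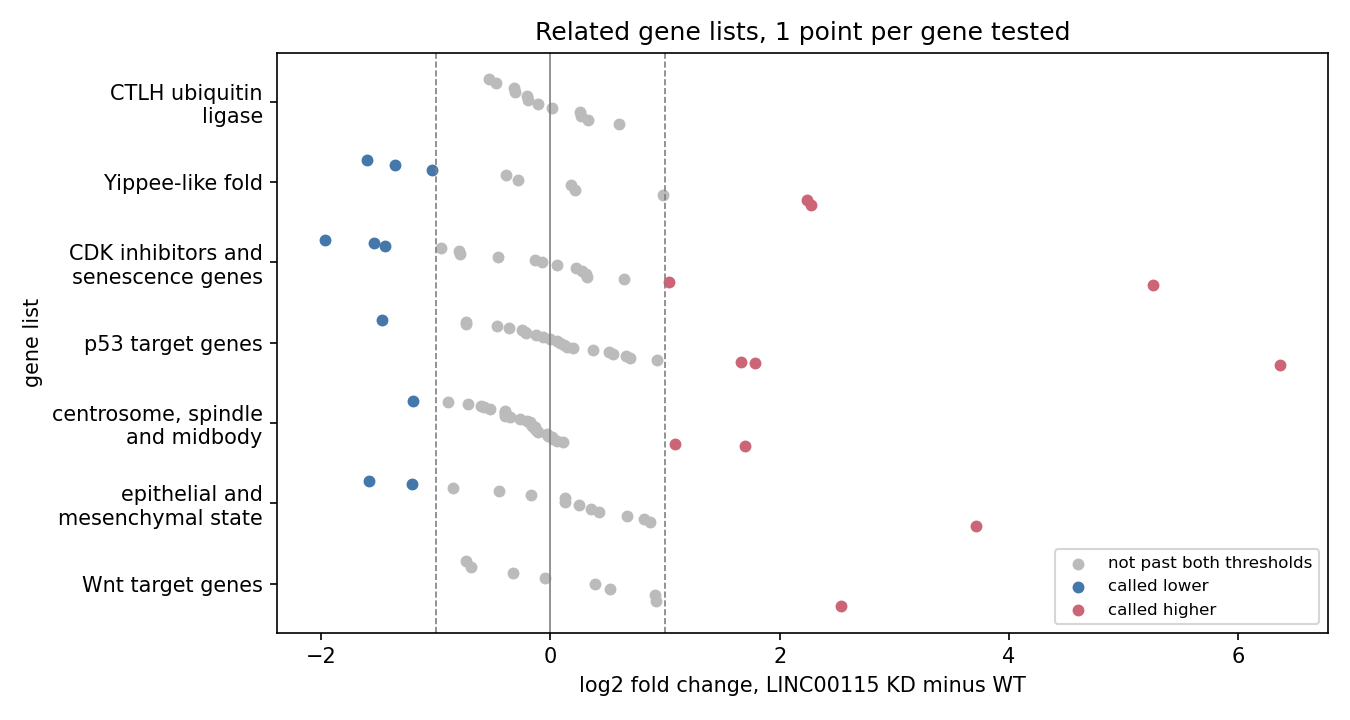
Log2 fold change (KD minus WT) of each gene tested in the 7 related lists, 1 point per gene, with dashed lines at a fold change of 2. Points of the CTLH list stay between the dashed lines, those of the Wnt list lie between and to the right of them, and those of the other 5 lists lie on both sides, with Dhx58 and Ifih1 to the right and Cdkn1a furthest left at −1.97.

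Of the cyclin-dependent kinase inhibitor and senescence genes, 3 of 17 tested were called lower and 2 higher (median −0.075), beside 9.98% and 10.2% of all genes tested. The called decreases were all kinase inhibitors. Cdkn1a, which encodes p21, fell from 257 ± 20.9 to 65.9 ± 2.49 normalized CPM (SD, n = 3), with a log2 ratio of −1.97 (SE 0.05, edgeR adjusted p = 3.21e-28). Cdkn1b, which encodes p27, fell by 1.54 and Cdkn2d by 1.44. Il6 rose (1.03), and Igfbp3 was called higher at 0.461 ± 0.153 normalized CPM in KD, with 1 count in the WT libraries together.

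Of the p53 target genes, 1 of 25 tested was called lower and 3 higher (median 0.079), beside 9.98% and 10.2% of all genes tested. Cdkn1a, itself a p53 target, was kept in the list above and is not counted here. Without the fold threshold 8 were lower and 11 higher, where 36.7% of all genes tested were lower and 36.7% higher. Btg2, an antiproliferative gene, fell by 1.47 on the log2 scale. Aen, a nuclease gene, rose from 18.8 ± 1.58 to 64.8 ± 1.26 normalized CPM (SD, n = 3). RNA of Plk3, a kinase that the study followed as protein, rose from 45.3 ± 2.23 to 143 ± 6.83 normalized CPM (SD, n = 3, log2 fold change 1.66, edgeR adjusted p = 1.35e-25). Eda2r was called higher at 0.995 ± 0.465 normalized CPM in KD with 1 count in the WT libraries together.

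Among 28 centrosome, spindle and midbody genes, 1 was called lower and 2 higher (median −0.17), and without the fold threshold 19 were lower and 2 higher, where 36.7% of all genes tested were lower and 36.7% higher. Cntrob, a centriole gene, fell by 1.20 on the log2 scale, and Nin (1.70) and Cep63 (1.08), both of the centrosome, rose. Of 14 epithelial and mesenchymal state genes tested, S100a4 (−1.20) and Ocln (−1.59) were called lower and Cdh1 higher, the last at 0.734 ± 0.143 normalized CPM in KD and 0.0530 ± 0.0264 in WT (SD, n = 3, median of the list 0.19). Of 9 Wnt target genes tested, 0 were called lower and only Notum, a secreted Wnt inhibitor, was called higher (2.53, edgeR adjusted p = 2.12e-24, median of the list 0.39). No list was tested as a set, and the shares called were read only beside the 9.98% lower and 10.2% higher of all genes.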

How the data were processed

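RNA-seq libraries of 3 LINC00115 KD and 3 WT samples were used. According to the methods, adapters were trimmed and reads mapped with HISAT2 to hg19. The submitters' processing notes name hg38, HISAT2, featureCounts and DESeq2, and the annotation and strand setting are not given in the sources used here. The authors deposited whole-number counts per gene without normalization, and the number of columns not used was 0. The analysis used edgeR 4.0.16 (R 4.3.3). Low genes were removed with filterByExpr at a minimum count of 10 and a minimum total of 15, libraries were TMM-scaled, and group, the only term, was tested by edgeR's quasi-likelihood F test, with p-values adjusted after Benjamini and Hochberg. Calls needed an adjusted p under 0.05 and a fold change over 2. Standard errors are the size of the log2 fold change over the square root of F. Log2 CPM used a prior count of 2. The fit was tested on simulated data. DESeq2 1.42.0, other scalings and filters, a replicate block and left-out libraries were alternatives. Named were all members, every CTLH and Yippee-like fold gene, called genes of the other lists (up to 6 each), neighbours and the 3 nearest patterns of each member past the thresholds. Members and lists were chosen with earlier results of these data known. At this depth, between 36979221 and 38799331 counts, intervals cover counting error only. Some genes that this rule or a marker list holds are not reported here.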

Additional observations from a re-analysis of the deposited data

How the results depend on the processing

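All 5 members kept their direction in every alternative that gave a value, and Ypel4 was not tested with at least 10 counts in every sample. The count of members past both thresholds, 4 in the main analysis, ranged from 3 to 5. Leaving out 1 library at a time gave log2 fold changes of −2.15 to −1.86 for Ypel1, −3.30 to −3.11 for Ypel2, −1.17 to −0.80 for Ypel3, −5.94 to −4.62 for Ypel4 and −1.02 to −0.98 for Ypel5. With upper quartile scaling Ypel5 was at −1.05, and 1 kinase inhibitor and senescence gene was called higher.

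Without the fold-change threshold, 4960 genes were lower and 4952 higher (1347 and 1381 with it). Lower and higher were then 5 and 4 CTLH genes, 5 and 4 Yippee-like fold genes, 8 and 7 kinase inhibitor and senescence genes, 8 and 11 p53 targets, 5 and 7 epithelial and mesenchymal genes, and 2 and 5 Wnt targets, and 19 centrosome genes were lower. With at least 10 counts in every sample, 903 genes were called higher, with 1 kinase inhibitor and senescence gene and 0 epithelial and mesenchymal genes among them. Without a low-count filter, 4 epithelial and mesenchymal and 2 Wnt target genes were called higher, and DESeq2's Wald test called 3 epithelial and mesenchymal genes higher. With a library left out, the genes called higher numbered 1 to 2 in the kinase inhibitor and senescence list, 1 to 2 in the centrosome list and 1 to 2 in the epithelial and mesenchymal list. The cause of these moves was not tested, other than that filters and thresholds change which genes can be called.

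Deviations from the group means of same-numbered libraries correlated at −0.021 to 0.042, so the numbers do not pair them. With the replicate block, 4 members were past the thresholds, and the log2 fold change was −5.15 for Ypel4 and −0.997 for Ypel3. The SE of Ypel3 was 0.11 with the block and 0.14 without it, while those of the other members were larger with it. Depth limits Ypel4 most, with 16 KD counts in all.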
